A study of Mus musculus with 12 samples.

Results

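The regions described here are 1183 of the 107627 ATAC-seq peaks of NeuN+ forebrain nuclei. They met a rule for lower tag values in mice without a working Sgsh gene. A peak was taken when the lower of its 2 wild-type (WT) values was at least 15 tags per 10000000 and at least 2 times the higher of its 2 SgshKO values. Among the 37729 peaks whose lower WT value reached 15, called well-covered peaks below, the rule took 3.14%. Members were thus chosen by their tag values in the 4 NeuN+ libraries. Because the rule reads the NeuN+ difference between genotypes, the difference itself is given as a description with no test.

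ATAC-seq inserts sequencing adapters into open DNA, so the number of reads (tags) over a place measures its accessibility. C57BL/6 mice of 4 months were WT or SgshKO, a mutant of the lysosomal enzyme N-sulfoglucosamine sulfohydrolase, which breaks down heparan sulfate; the labels do not describe the allele. The 12 libraries came from 3 sorts with 2 WT and 2 SgshKO libraries each. Neuronal nuclei (PU.1-/OLIG2-/NEUN+) and oligodendrocyte-lineage nuclei (PU.1-/OLIG2+/NEUN-) were lightly fixed with formaldehyde, and microglia were sorted as living cells by CD11b, CD45 and CX3CR1. Neither the sex, the animal behind a library nor a batch is given in the labels, so p-values measure the spread between these libraries only, and libraries of different sorts may come from the same brains. With pooled nuclei, a place that closes in some nuclei cannot be told apart from one that closes partly in all of them.

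Open chromatin in neurons lies at promoters, where transcription begins and where GC-rich DNA is usually free of nucleosomes, and at distal elements bound by transcription factors. Promoters tend to be open in many cell types, while distal elements differ between them. Sp1-family factors, of which Sp3 is one, bind the GC box found in many promoters.

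The NeuN+ libraries held 17653808 and 17706971 tags for WT, 14326703 and 15750361 for SgshKO. Peaks took up 26.7% and 25.9% of the WT tags but 21.5% and 21.2% of the SgshKO tags. This share was 31.8%, 31.8%, 30.9% and 31.8% in Olig2+ nuclei (both WT, then both SgshKO), and 55.8%, 48.7%, 67.4% and 53.7% in microglia. The sort label held: all 7 neuron markers (Rbfox3, Snap25, Syt1, Slc17a7, Gad1, Gad2 and Stmn2) had a start-site peak in NeuN+ nuclei, against 3 of 7 in Olig2+ nuclei and 1 of 7 in microglia. None of 5 endothelial and 1 each of 6 astrocyte and 6 microglia markers had one. Their summed start-site tags were nonetheless lower in SgshKO for neurons (677 and 622 against 350 and 371). The oligodendrocyte-lineage sum, from 4 of 8 markers with Olig2, Sox10, Mag and Mog lacking a peak, was 140 and 120 against 67.0 and 71.7. The Sgsh start-site peak was not taken by the rule: it had 34.6 and 22.6 tags in WT against 9.07 and 13.3, which does not check the genotype label.

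How many peaks meet the rule depends on the scaling. After each library was scaled to its tags in peaks, 208 peaks met it. Median-of-ratios scaling left 316 and quantile normalization 460, all of them among the 1183.

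The start-site sequences of members with the highest WT level are shown first, because members lay often at GC-rich promoters. The 250 bases before the annotated start are from RefSeq (GRCm38.p6), written on the strand of the gene, with each GC box (GGGCGG, or CCGCCC on the other strand) in capitals. Kmt2a (a histone H3K4 methyltransferase, chr9:44881290-44881539, minus strand), Man1c1 (a Golgi mannosidase, chr4:134704291-134704540, minus strand) and Pygo2 (a coactivator of Wnt signalling, chr3:89429964-89430213, plus strand) are 3 of the 4 start-site members with the highest WT mean. At the other one, the peak of 3110070M22Rik, the table holds the promoter of the neighbouring gene Tmem267, which has 74.4% GC and 3 GC boxes and is not printed. Trib2 (a Tribbles pseudokinase, chr12:15816786-15817035, minus strand) is added for its opposite behaviour in Olig2+ nuclei.
Kmt2a: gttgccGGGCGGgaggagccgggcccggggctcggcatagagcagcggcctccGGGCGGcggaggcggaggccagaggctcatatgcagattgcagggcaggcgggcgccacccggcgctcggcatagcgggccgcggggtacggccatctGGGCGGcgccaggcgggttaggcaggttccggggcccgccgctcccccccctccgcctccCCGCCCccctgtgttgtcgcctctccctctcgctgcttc
Man1c1: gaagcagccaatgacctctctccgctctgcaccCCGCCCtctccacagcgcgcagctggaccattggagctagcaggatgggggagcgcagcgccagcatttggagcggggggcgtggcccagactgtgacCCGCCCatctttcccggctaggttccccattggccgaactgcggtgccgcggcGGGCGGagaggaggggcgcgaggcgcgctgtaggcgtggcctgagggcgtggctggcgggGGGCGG
Pygo2: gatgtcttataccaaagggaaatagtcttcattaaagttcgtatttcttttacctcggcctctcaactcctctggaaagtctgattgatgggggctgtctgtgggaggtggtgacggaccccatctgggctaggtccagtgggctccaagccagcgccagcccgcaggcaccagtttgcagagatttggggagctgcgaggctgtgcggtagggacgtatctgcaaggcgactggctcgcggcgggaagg
Trib2: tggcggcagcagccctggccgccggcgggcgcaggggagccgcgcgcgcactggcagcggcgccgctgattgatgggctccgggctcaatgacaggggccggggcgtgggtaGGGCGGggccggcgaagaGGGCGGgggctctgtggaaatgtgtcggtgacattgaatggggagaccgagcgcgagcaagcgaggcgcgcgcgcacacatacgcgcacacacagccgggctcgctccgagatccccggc
Kmt2a and Man1c1 hold 4 GC boxes each, Trib2 holds 2, and Pygo2 holds 0. GC content is 76.8% for Kmt2a, 71.6% for Man1c1, 73.6% for Trib2 and 56.8% for Pygo2.

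The members ranged widely in strength. Their WT mean ran from 15.3 to 581 tags with a median of 33.7, and their SgshKO mean from 2.35 to 184 with a median of 13.0. The fold of the WT over the SgshKO mean was 2.51 at the median, with quartiles of 2.31 and 2.79 and extremes of 2.03 and 12.9. Of the members, 578 fell under 2.5-fold, 428 from 2.5- to 3-fold, 140 from 3- to 4-fold and 37 by 4-fold or more. The median member had 59 reads per WT library and 20 per SgshKO library, and the lowest SgshKO library had 2 reads. The median log2 change between the genotype means was -0.22 over all NeuN+ peaks and -0.44 over well-covered peaks, a set chosen on WT values alone, so that part of its fall is built in. By limma, 39.4% of well-covered peaks and 19.6% of all NeuN+ peaks were lower in SgshKO, while 10.2% of all were higher.

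**Figure D1:**
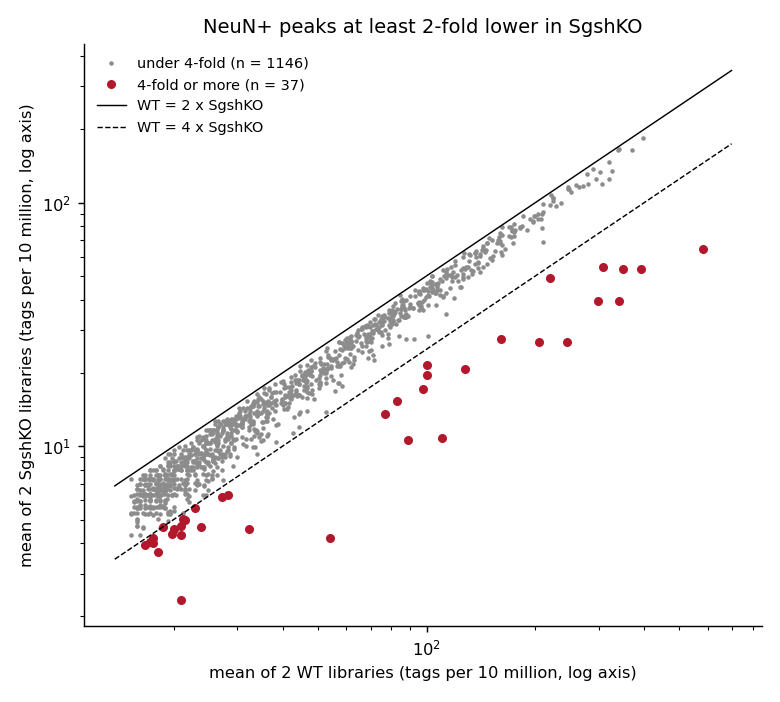
Mean tags per 10000000 in SgshKO against WT NeuN+ nuclei (2 libraries each, log axes) for all 1183 members, with lines at 2-fold and 4-fold. Most members lie in a band close to the 2-fold line at every level, and the 37 red points, from 16.7 to 581 tags in WT, lie below the 4-fold line.

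At the limit of the rule, the closest peaks inside and outside had nearly the same values. Inside, Cacnb2, a calcium channel subunit, had 26.6 and 25.4 tags in WT against 12.6 and 12.7 in SgshKO at its promoter. An intronic peak of Fgf9, a growth factor, had 41.9 and 45.2 against 15.4 and 20.9. Just outside were peaks nearest Npepps (18.1 and 20.9 against 9.07 and 8.25), Jkamp (18.1 and 20.3 against 9.07 and 8.25) and Lipg (18.1 and 21.5 against 9.07 and 6.35). Their lower WT value was just under 2 times the higher SgshKO value.

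The 37 regions that fell at least 4-fold, a division made after the values were seen, were unlike the other members in where they lay. Of the 37, 20 were intergenic, 8 lay in promoters, 5 in introns, 2 in exons and 2 in 3' untranslated annotation. Only 9 (24.3%) were within 1000 bp of a start site, against 53.8% of all members. They were narrow, with a median width of 205 bp, and 22 of them were under 210 bp wide, a width reached by 14.0% of members and 6.35% of well-covered peaks. They include 9 of the 44 members with a WT mean of 200 tags or more. Only 2 of them lay within 50000 bp of another such region, so they are scattered over the genome. How multiply mapped reads were treated is not given in the sources used here, and whether these narrow regions lie in repeated sequence was not tested. Their values in every sort carry this limit.

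The 8 members with the largest falls by the log2 change of the means plus 1 were, with 1 intronic exception, intergenic peaks of 201 to 212 bp. By the plain fold of means, a weak intronic peak of Ccl28, a chemokine, would also be among them (8.92-fold, 20.4 and 21.5 tags against 2.79 and 1.90). The peak nearest Hrh2, the histamine H2 receptor (chr13:54190064-54190264), had 58.3 and 49.7 tags in WT and 1.40 and 6.98 in SgshKO, a 12.9-fold difference of means. Its SgshKO values rest on 2 and 11 reads. The peak nearest Plekha1, a phosphoinositide-binding protein (chr7:130834391-130834593), had 109 and 111 against 7.68 and 14.0. The lower WT value was 7.12 times the higher SgshKO value at Hrh2 and 7.83 times at Plekha1.

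The strongest member of all lay 26288 bp from the start of Rpp21, a subunit of ribonuclease P (chr17:36231458-36231658). It had 591 and 570 tags in WT and 69.1 and 60.3 in SgshKO. A peak nearest Timm8a1, a mitochondrial import chaperone (chr10:11492056-11492259), had 263 and 226 against 25.8 and 27.9. One inside intron 5 of Il1rapl1, a synaptic adhesion receptor (chrX:87238282-87238484), had 378 and 304 against 44.7 and 34.3. These 3 strong peaks thus dropped 8.65- to 9.11-fold, with the replicates of a genotype close together.

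The peak nearest Sp3 (chr2:73012641-73012852) had 87.2 and 90.9 tags in WT and 10.5 and 10.8 in SgshKO. The one nearest Gm28590 (chr1:122357118-122357321) had 304 and 293 against 37.0 and 41.9. The peak 7130 bp from Mir6367 (chr16:91534571-91534778) had 228 and 180 against 25.8 and 27.9. Distances of these 8 peaks from the start of their nearest gene ran from 1965 bp (Hrh2) to 877240 bp (Il1rapl1), so the gene names mark position and no link to the gene was measured.

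Among the highest WT means, Cd209a (a C-type lectin receptor gene, 5483 bp away, chr8:3754367-3754568) was also steep, at 413 and 370 against 58.6 and 48.3. Kmt2a and Zcchc14 were closer to the 2-fold limit. Kmt2a (chr9:44881348-44881602, promoter) had 393 and 402 tags against 180 and 189, and an intergenic peak 1081 bp from the start of Zcchc14 (chr8:121652882-121653147) had 383 and 357 against 154 and 175.

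Within 1000 bp of a start site the member with the steepest fall was that of 3110070M22Rik (chr13:119488307-119488533), a non-coding RNA. It had 368 and 329 tags in WT and 46.1 and 60.3 in SgshKO, a 6.55-fold difference. A weaker neighbouring peak at the start of Tmem267, a membrane protein gene, had 27.2 and 20.3 against 4.89 and 4.44. Pygo2 (chr3:89430175-89430417) had 343 and 336 against 165 and 167, and Man1c1 (chr4:134704263-134704481) 339 and 336 against 168 and 163. Other start sites among the 4-fold members were those of Npnt, Tec, Pcsk6 and Frat2, and of 3 genes given here with values. Malat1, an abundant nuclear RNA, had 18.1 and 16.9 against 4.19 and 3.81. Chrna4, a nicotinic receptor subunit, had 18.7 and 21.5 against 2.79 and 6.35. Rgs16, a regulator of G-protein signalling, had 19.3 and 22.6 against 6.28 and 3.17. These last 3, named after their values were seen, are weak peaks, with 4 to 10 reads in each SgshKO library.

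As taken by the rule, members lay more often near start sites than well-covered peaks as a whole, a difference given without a test. Of the 1183, 637 (53.8%) were within 1000 bp of a start site, against 42.0% of well-covered peaks. By class, 473 were promoter, 330 intron, 195 intergenic, 97 exon, 38 5' untranslated, 30 transcript end, 11 3' untranslated and 9 non-coding. The rule took 6.21% of well-covered exon peaks, 5.44% of 5' untranslated ones and 3.81% of promoter ones, but 2.46% of intron and 2.42% of intergenic ones. Its share fell from 4.34% at 200 to 1000 bp from a start to 1.73% beyond 50000 bp. Under other settings this difference shrank, turned or grew. Under in-peak scaling, 46.6% of the 208 members were within 1000 bp, against 44.7% of the peaks well covered under it. Quantile normalization gave 39.3% against 43.1%, and a fold of 3 gave 31.5% against 42.0%, both with the opposite direction. A WT minimum of 30 tags gave 71.7% against 64.2%. The difference was larger at a fold of 1.5 (60.6% against 42.0%) and with Peak Score 1000 only (58.3% against 43.7%).

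Width went with membership more steeply than class did. Among peaks at the narrowest width of 201 bp the rule took 14.2%, against 1.82% of peaks over 300 bp. Level mattered less, with shares of 2.54% to 4.30% over 6 ranges of the WT mean. Among assembled chromosomes other than Y, the highest shares were on 19 (52 members, 4.62%) and 15 (86, 4.59%), and the lowest on 14 (26, 1.97%). Within 5 Mb of Sgsh itself on chromosome 11 the rule took 17 of 466 peaks (3.65%).

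**Figure D2:**
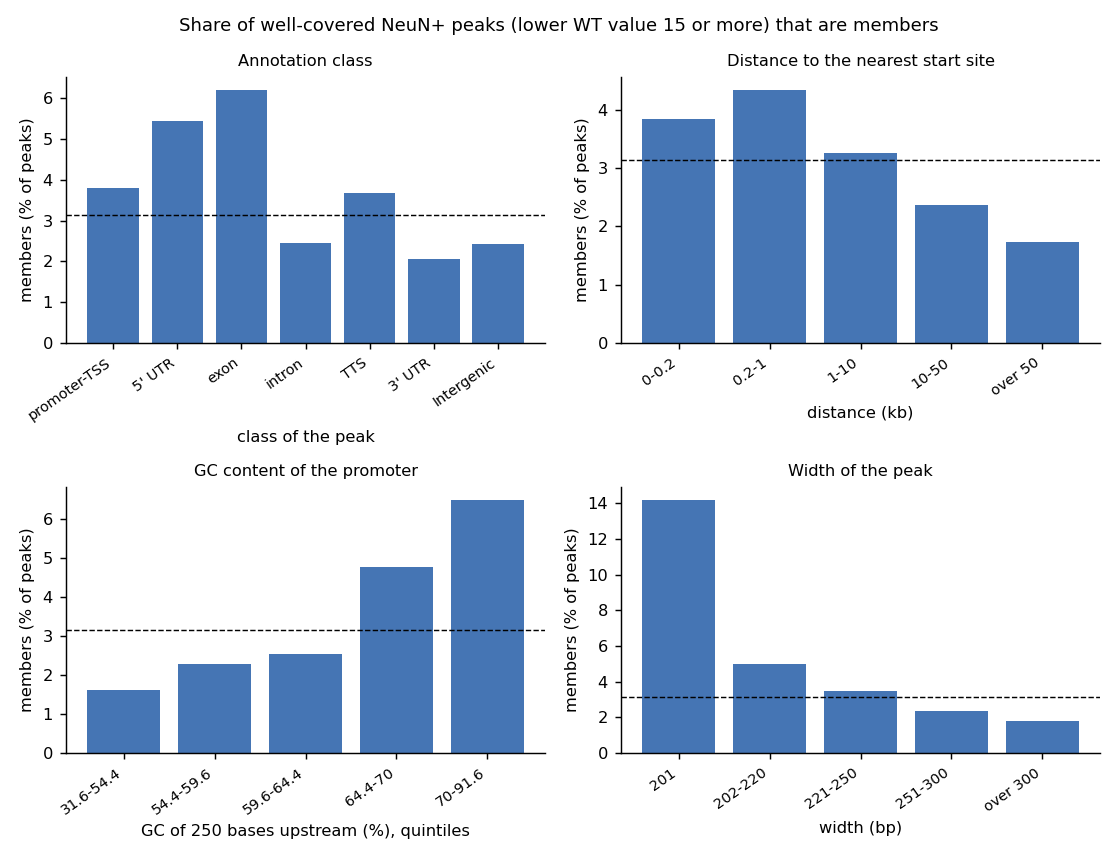
Members as a percentage of well-covered NeuN+ peaks by annotation class, distance to the start site (kb), GC content of the 250 promoter bases in quintiles, and peak width (bp); the dashed line is the share of all well-covered peaks, 3.14%. The share is highest for exon peaks, near start sites, at the GC-richest promoters (6.47%) and among 201 bp peaks (14.2%).

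Members at promoters had GC-rich sequence. The 250 bases before the start could be read for 338 promoters at members, with a median GC content of 67.2% (quartiles 61.2% and 73.2%). At the promoters of other well-covered peaks it was 61.6% (55.6% and 68.4%), and over all 32851 RefSeq promoters in the table it was 52.4%. From the lowest to the highest of 5 equal classes of GC content the rule took 1.62%, 2.28%, 2.53%, 4.76% and 6.47% of promoter peaks. The median NeuN+ log2 change of all well-covered promoter peaks went from -0.32 to -0.73 over the same classes. In Olig2+ nuclei the medians at these promoters went the other way, from -0.12 to 0.24, and in microglia they were 0.17, 0.36, 0.40, 0.44 and 0.30.

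The GC box (GGGCGG on either strand) was present in 262 of the 338 member promoters (77.5%), against 65.3% of other well-covered promoters and 32.7% of all promoters. The CCAAT box (CCAAT, bound by NF-Y) was present in 25.1% against 37.2% and 33.9%. An E-box (CACGTG, the core of the site bound by MITF, TFEB and TFE3) was present in 8.58% against 9.10% and 6.02%. The cAMP response element (TGACGTCA) was in 3.85% against 3.06%, and the AP-1 site (TGANTCA) in 3.25% against 3.40%. GC boxes follow GC content, and a match is a description of the letters only.

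Many members had company. Within 50000 bp of another member lay 265 (22.4%), while 15.6% of other well-covered peaks had a member that near. The figures were 10.7% and 5.77% at 10000 bp, and 40.9% and 36.5% at 200000 bp. Chained at gaps of at most 50000 bp, 117 groups of 2 or more members formed, 25 of them with 3 or more, and the largest had 5. The 1183 members had 1090 different nearest genes, of which 1016 had 1 member, 59 had 2, and 15 had 3 or more. Under in-peak scaling 9.13% of the remaining members had another within 50000 bp. Only 208 members remained there and no share of other peaks is given, so this does not show whether clustering changed.

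The largest group lay at the end of chromosome Y, where 5 of 13 well-covered peaks were members, all nearest G530011O06Rik. These 5 members were the only well-covered peaks between 90738430 and 90742275. Their WT values ran from 27.8 to 60.6 tags and their SgshKO values from 8.25 to 22.3. The symbol G530011O06Rik is also nearest to peaks at the end of chromosome X, among them the 4-fold member chrX:169993956-169994316 (107 and 88.7 against 20.2 and 14.0). Reads from near-identical copies on X and Y cannot be told apart here, and these values are uncertain. Summed over all Y peaks, every one of which lies beyond 90 Mb, NeuN+ nuclei had 610 and 579 tags (WT) against 270 and 250 (SgshKO). The sums were 201 and 196 against 128 and 112 in Olig2+ nuclei and 167 and 129 against 76.2 and 72.4 in microglia. In each sort both SgshKO values were below both WT values, and whether the sex of the animals had a part in this was not tested.

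A second group on chromosome 17 (45506977 to 45573489) held 4 members out of 15 well-covered peaks. The promoter of Hsp90ab1, a cytosolic chaperone, had 137 and 124 tags against 49.6 and 49.5. Tmem151b, a membrane protein gene, had a first-exon peak (98.0 and 90.9 against 36.3 and 41.3) and a second-exon peak (19.8 and 22.6 against 9.77 and 8.25). Aars2, the mitochondrial alanyl-tRNA synthetase, had 73.1 and 64.4 against 30.7 and 31.8 in its first intron. So 3 neighbouring genes each had a member near the start, while the other well-covered peaks of the span did not meet the rule.

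The third group lay in and behind Adgrb1, an adhesion G-protein-coupled receptor of synapses (chr15:74519570-74589186, 4 of 32 well-covered peaks). Its strongest member, in intron 18, had 94.0 and 107 tags against 27.9 and 28.6, a 3.56-fold difference. Members in introns 1 and 17 had 67.4 and 71.2 against 25.1 and 24.1, and 71.9 and 60.4 against 28.6 and 22.9. The fourth, at the end of Mroh4, had 42.5 and 42.4 against 16.8 and 15.2. Further along the same chromosome, 3 members surrounded Arc, the activity-induced synaptic gene, at 4513 bp upstream and 3666 and 4091 bp downstream of its start. The upstream one had 40.8 and 52.5 against 14.7 and 13.3. The downstream ones were weak, at 15.3 and 15.3 against 4.19 and 6.35 (3666 bp), and 18.1 and 20.3 against 5.58 and 6.98 (4091 bp). Members were 3 of 10 well-covered peaks in this span and 3 of 17 by nearest gene.

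Of the 25 groups with 3 or more members, those at Bcl11a, Sox11 and Camk2a are described here, picked after the groups were seen. Others lay at genes such as Inpp5k and Myo1c, Frmd8 and Slc25a45, or Ctc1 and Borcs6. At Bcl11a, a transcription factor of cortical neurons, 3 of 3 well-covered peaks in the span were members, with folds of 2.71, 2.75 and 2.64. Sox11, a transcription factor of young neurons, had 3 of 4, among them its promoter (85.5 and 87.5 against 39.8 and 38.7). Camk2a, the kinase of excitatory synapses, had 3 of 4. Each span runs from the first to the last member, which raises these shares. By nearest gene, members were 3 of 11 well-covered peaks at Bcl11a, 3 of 5 at Sox11 and 3 of 15 at Camk2a. The Camk2a promoter had 107 and 106 tags against 45.4 and 42.5, and an intronic peak 5081 bp inside had 109 and 102 against 41.9 and 43.2.

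By nearest gene, lists of neuronal genes differed in how many peaks were taken. For 20 excitatory neuron genes the rule took 11 of 103 well-covered peaks (10.7%, against 3.14% overall), at 9 genes. Beside Camk2a these include the promoters of Slc17a7, the vesicular glutamate transporter (86.7 and 70.6 against 27.9 and 24.8), and Mef2c, an activity-regulated transcription factor (37.4 and 30.5 against 11.9 and 15.2). Neurod6, a transcription factor of cortical projection neurons, had 43.1 and 46.3 against 11.2 and 16.5, and Tbr1, a deep-layer factor, 19.3 and 16.4 against 5.58 and 7.62. The median log2 change over all 103 peaks was -0.61, against -0.44 over all well-covered peaks. Of the 103, 92 were below 0, but a fall was usual: the upper quartile over all well-covered peaks was -0.11. For 20 inhibitory neuron genes the rule took 1 of 16, at Ppp1r1b, the dopamine-regulated phosphatase inhibitor. The median there was -0.42, and 16 of 16 were below 0. For the 7 neuron markers the rule took 1 of 68 (1.47%), the Slc17a7 promoter. Their median was -0.44, and 56 of 68 were below 0. The lists thus lay on both sides of the overall share.

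The remaining lists lay nearer to the overall share than the excitatory list did, except for the astrocyte markers. Voltage-gated ion channel genes had 8 of 153 (5.23%), among them the Kcnh1 promoter (163 and 155 against 72.6 and 71.7) and the Kcnq3 promoter (161 and 152 against 67.0 and 69.2), both potassium channels. Immediate-early genes had 6 of 147 (4.08%), 3 of them around Arc and 1 at the promoter of the nuclear receptor Nr4a3 (171 and 176 against 69.8 and 67.3). Over these 147 peaks the median log2 change was -0.59, near that of the excitatory list, and 135 were below 0. Glutamate receptor and postsynaptic genes had 6 of 152 (3.95%), among them the promoter of the receptor subunit Grin1 (150 and 147 against 69.8 and 73.0). Synaptic vesicle genes had 4 of 105 (3.81%), lysosome genes 2 of 80 (2.50%), and long adhesion genes 1 of 95 (1.05%). The lysosomal members were Ctsl, a cathepsin (102 and 89.8 against 39.8 and 44.4), and Tfe3, a regulator of lysosome genes (20.4 and 17.5 against 4.19 and 6.98). Among marker genes of other cells, 1 of 19 well-covered peaks of the oligodendrocyte lineage was a member (5.26%), nearest Mbp. Of the astrocyte markers, 2 of 10 peaks were members (20%), nearest Gja1 and Aldh1l1. The microglia and endothelium lists had 0 members among 3 and 9 well-covered peaks.

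The same places were then read in the tables of the other sorts, which the rule did not use. Peaks were matched by an overlap of at least 1 bp. Olig2+ nuclei had a peak at 768 members (64.9%, against 54.9% of other well-covered NeuN+ peaks), and microglia at 712 (60.2%, against 51.1%). Both had one at 587 members, and neither at 290.

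In Olig2+ nuclei the member places as a whole did not follow the neuronal fall. By limma with Benjamini-Hochberg adjustment over the table, 91 of 768 were lower in SgshKO (11.8%, against 11.7% of the Olig2+ table) and 84 were higher (10.9%, against 8.17%). The median log2 change was -0.002, against -0.07 over the table, and 385 of 768 were below 0. At the places of other well-covered NeuN+ peaks, 10.8% were lower and 12.1% higher. The shares of limma calls at members are thus near the background in both directions. The same 2-fold rule was met in Olig2+ nuclei by 17 of 567 member places whose lower WT value there was at least 15. At the places of other well-covered NeuN+ peaks 96 of 15571 met it, a lower share. Among all Olig2+ peaks with that WT minimum the share was 2.30%.

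Start-site and distant members differed in these counts. Within 1000 bp of a start site, 33 of 487 were lower and 67 higher, with a median of 0.06. Farther away, 58 of 281 were lower and 17 higher, with a median of -0.20. Other well-covered peaks showed the same division, with 7.81% lower and 15.8% higher near starts (median 0.07), and 15.5% lower and 6.13% higher farther away (median -0.18).

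The 4-fold members were the exception in Olig2+ nuclei. Of the 19 with an Olig2+ peak, 15 were lower (78.9%, against 11.7% of the table), and 18 had a change below 0, with a median of -1.37. None of the 19 was higher by limma at an adjusted p under 0.05; at an unadjusted p under 0.05 there was 1, and edgeR and DESeq2 gave 0. The number lower was 15 with edgeR, 11 with DESeq2, 15 under each of the 3 other scalings and 13 to 15 when 1 library was left out. Among the 19, 12 met the same 2-fold rule in Olig2+ nuclei, out of 17 members in all that did so. In members of 3- to 4-fold, 12 of 75 places were lower, and in those under 3-fold 64 of 674 (9.50%).

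The steep places with the smallest p in Olig2+ nuclei are given first. The Cd209a peak had 157 and 181 tags in WT and 49.2 and 40.6 in SgshKO Olig2+ nuclei, a log2 change of -1.89 ± 0.14 (SE; limma adjusted p = 3.57e-11). The peak nearest 4930433N12Rik (chr9:3258757-3258958) had 160 and 190 against 40.6 and 35.2 there (-2.18 ± 0.14, limma adjusted p = 2.31e-12), and 235 and 203 against 47.5 and 50.8 in NeuN+ nuclei. The one 1627 bp from Kpna1, an importin, had 195 and 253 against 73.2 and 55.2 (-1.79 ± 0.13, limma adjusted p = 6.30e-11). In each of these the genotypes did not overlap in Olig2+ nuclei.

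The Rpp21 peak fell from 189 and 192 to 74.4 and 64.5 in Olig2+ nuclei (-1.44 ± 0.12, limma adjusted p = 4.83e-10). The 3110070M22Rik promoter fell from 177 and 171 to 64.6 and 69.8 (-1.36 ± 0.12, limma adjusted p = 1.93e-09). Peaks nearest Timm8a1, Il1rapl1, Gm28590 and Mir6367 changed by -1.56, -1.37, -1.63 and -1.31, all called. Plekha1 had the weakest call, at 30.1 and 38.4 against 23.4 and 14.0 (-0.87 ± 0.24, limma adjusted p = 0.012). Its call was lost with DESeq2 and without WT replicate 2 or SgshKO replicate 2. Hrh2 and Sp3 had no Olig2+ peak. The 4 steep places not called there by limma were nearest Fam178b (-0.05), Slc22a29 (-0.37), Pcsk6 (-0.21) and Tec (0.61).

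The call with the smallest p in Olig2+ nuclei stood at a place that was weak in neurons. In intron 5 of the transcript NM_177267, near Mir1843a (chr12:80380030-80380386), Olig2+ nuclei had 578 and 571 tags in WT against 237 and 257 (-1.22 ± 0.07, limma adjusted p = 1.08e-13). In NeuN+ nuclei this place had 26.1 and 23.7 against 9.07 and 9.52. The place was thus strong in Olig2+ nuclei and weak in neurons; the 2 tables were normalized separately.

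Among members that rose in Olig2+ nuclei, those with the smallest p lay near the starts of Trib2 and Hr. The Trib2 promoter had 124 and 102 tags in WT and 214 and 220 in SgshKO (0.94 ± 0.11, limma adjusted p = 2.25e-07), and in NeuN+ nuclei 215 and 200 against 69.1 and 88.9. A peak 244 bp inside Hr, a nuclear receptor corepressor, had 200 and 207 against 326 and 348 (0.73 ± 0.08, limma adjusted p = 1.62e-07), and in NeuN+ nuclei 21.5 and 21.5 against 5.58 and 8.89. At both, every SgshKO value in Olig2+ nuclei lay above both WT values.

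The 3 largest groups of members differed in their calls in Olig2+ nuclei, where 11.7% of the table was lower. On the end of Y, 3 of 5 members met a called Olig2+ peak, with changes of -1.58, -1.86 and -1.12 (limma adjusted p = 0.00123, 0.000714 and 0.0278). In that order, their tags were low, at 14.5 and 17.9 against 3.69 and 5.98, 11.4 and 15.85 against 4.30 and 1.99, and 10.9 and 9.20 against 4.92 and 3.32. DESeq2 gave no adjusted p for these 3 peaks. The Hsp90ab1 promoter was lower, at 135 and 135 tags against 99.0 and 93.7 (-0.48 ± 0.12, limma adjusted p = 0.00412). Without WT replicate 2 all these Y calls were lost, and the Hsp90ab1 call was lost without either WT library and with DESeq2. The Y change of -1.12 also lost its call without WT replicate 1 or SgshKO replicate 2 and with quantile normalization. None of the 4 members of the Adgrb1 group passed by limma, and their changes ran from -0.05 to 0.30; the intron 1 peak was called higher with edgeR (adjusted p = 0.0315) and with median-of-ratios scaling (limma adjusted p = 0.0449).

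**Figure D3:**
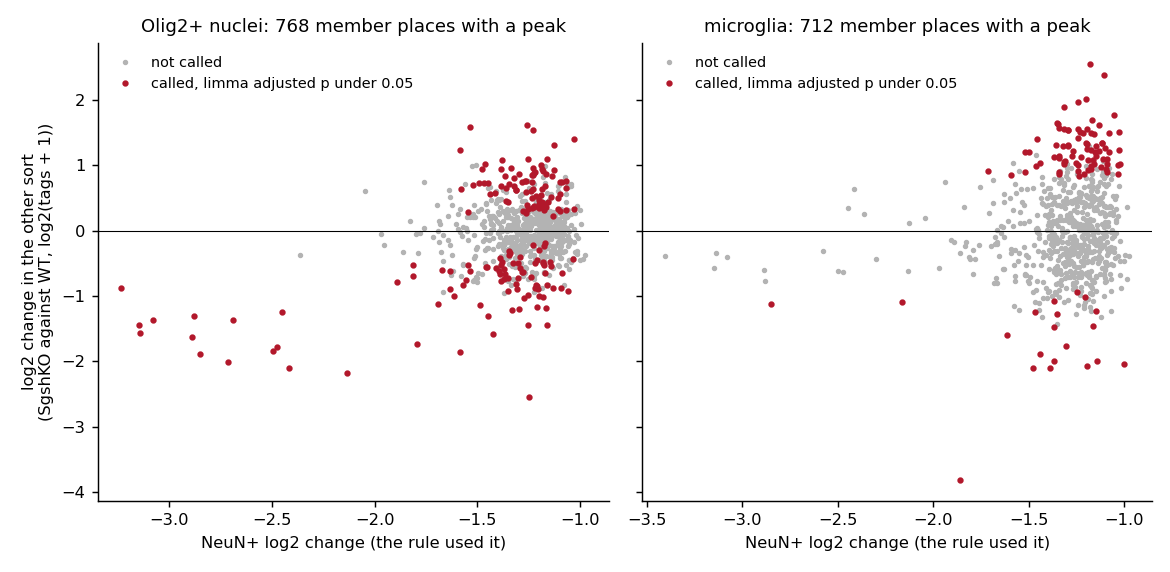
Log2 change in Olig2+ nuclei (left) and microglia (right) against the NeuN+ log2 change at member places with a peak, called peaks in red. Places with a small NeuN+ fall spread evenly around 0 in Olig2+ nuclei, while the steepest places lie below 0 there; in microglia the called places are mostly above 0 and the steepest ones are close to or below 0.

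In microglia few member places were lower. By limma, 20 of 712 were lower (2.81%, against 2.33% of the microglia table) and 79 were higher (11.1%, against 5.05%). At the places of other well-covered NeuN+ peaks the share higher was also 10.9%, so the share at members is near that of places open in neurons. The median log2 change was -0.02, against 0.10 at those other places and -0.08 over the table. Near start sites 66 of 468 were higher and 6 lower, and farther away 13 of 244 were higher and 14 lower. At other well-covered places near start sites 14.1% were higher, the same share as at members (14.1%), and 0.587% lower against 1.28%. Farther away 4.64% were higher against 5.33% of members, and 2.53% lower against 5.74%. The same 2-fold rule was met in microglia by 11 of 646 member places whose lower WT value there was at least 15. At the places of other well-covered NeuN+ peaks 169 of 16908 met it, a lower share. Among all microglia peaks with that WT minimum the share was 2.05%.

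The share of tags in peaks differed most between libraries of this sort, and the counts changed with the scaling and with the library left out. The number lower was 99 under in-peak scaling and 102 without SgshKO replicate 1, but 1 without either WT library. The number higher ran from 8 without WT replicate 2 to 135 with edgeR. Of the 4-fold members, 26 had a microglia peak, 2 of which were lower, with a median change of -0.34. The number lower was 5 with edgeR and 2 with DESeq2. It was 8 with in-peak scaling, 4 with median-of-ratios scaling and 9 with quantile normalization. With all libraries, none of the 26 was higher by limma or DESeq2, while 1 was at an unadjusted p under 0.05 and 1 with edgeR.

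The 3 microglia rises with the smallest p were all at start-site members. At the promoter of Cenpc1, a centromere protein (chr5:86065600-86065814), microglia had 89.9 and 73.7 tags in WT against 410 and 574 (2.56 ± 0.28, limma adjusted p = 9.90e-08). Tram2, an endoplasmic reticulum protein involved in collagen synthesis, had 82.1 and 50.0 against 262 and 437 (2.38 ± 0.31, limma adjusted p = 2.17e-06). Slc44a2, a choline transporter-like protein, had 71.7 and 75.4 against 268 and 318 (1.97 ± 0.29, limma adjusted p = 1.57e-05). The same promoters in NeuN+ nuclei had 182 and 185 against 77.5 and 83.2, 174 and 168 against 77.5 and 80.6, and 73.6 and 62.7 against 27.2 and 29.2. Tram2 was also higher in Olig2+ nuclei, at 221 and 226 against 304 and 328 (0.50 ± 0.08, limma adjusted p = 6.08e-05).

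Of the strong start-site members, Man1c1 had 538 and 461 tags in WT and 1389 and 1469 in SgshKO microglia (1.52 ± 0.23, limma adjusted p = 3.44e-05), and was higher in Olig2+ nuclei too (0.33 ± 0.07, limma adjusted p = 0.0015). Pygo2 had 482 and 476 against 1266 and 1017 in microglia (1.24 ± 0.24, limma adjusted p = 0.000661) and 0.02 ± 0.09 in Olig2+ nuclei (limma adjusted p = 0.89). Without WT replicate 2 the Pygo2 call in microglia was lost, and without WT replicate 1 the Man1c1 call in Olig2+ nuclei. Kmt2a passed by limma on the deposited values in neither, with 0.15 ± 0.06 (limma adjusted p = 0.0975) and 0.13 ± 0.32 (limma adjusted p = 0.858). In Olig2+ nuclei the Kmt2a peak was called higher with edgeR (adjusted p = 0.0137). It was also called there with in-peak scaling (limma adjusted p = 0.048) and median-of-ratios scaling (limma adjusted p = 0.0112).

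The lowest microglia p among falling places belonged to the Y member at 90741053, with 37.2 and 38.1 tags in WT and 0 and 6.50 in SgshKO (-3.82 ± 0.60, limma adjusted p = 4.79e-05); the copies noted above apply to it. The Sema6d promoter, of a semaphorin, had 38.9 and 41.5 against 13.0 and 5.57 (-2.10 ± 0.45, limma adjusted p = 0.00259) and in NeuN+ nuclei 30.6 and 23.2 against 9.77 and 9.52. Cd209a had 489 and 367 against 196 and 192 (-1.12 ± 0.26, limma adjusted p = 0.00549). The Sema6d and Cd209a calls were lost without either WT library, and the Y call with DESeq2. Of the 587 members with a peak in both other sorts, 3 were lower in both (0.511%, against 0.175% of other well-covered peaks with both), and Cd209a was the 1 among them of at least 4-fold. In both, 12 were higher (2.04%, against 2.94%), and 4 were lower in Olig2+ nuclei and higher in microglia (0.681%, against 1.17%).

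**Figure D4:**
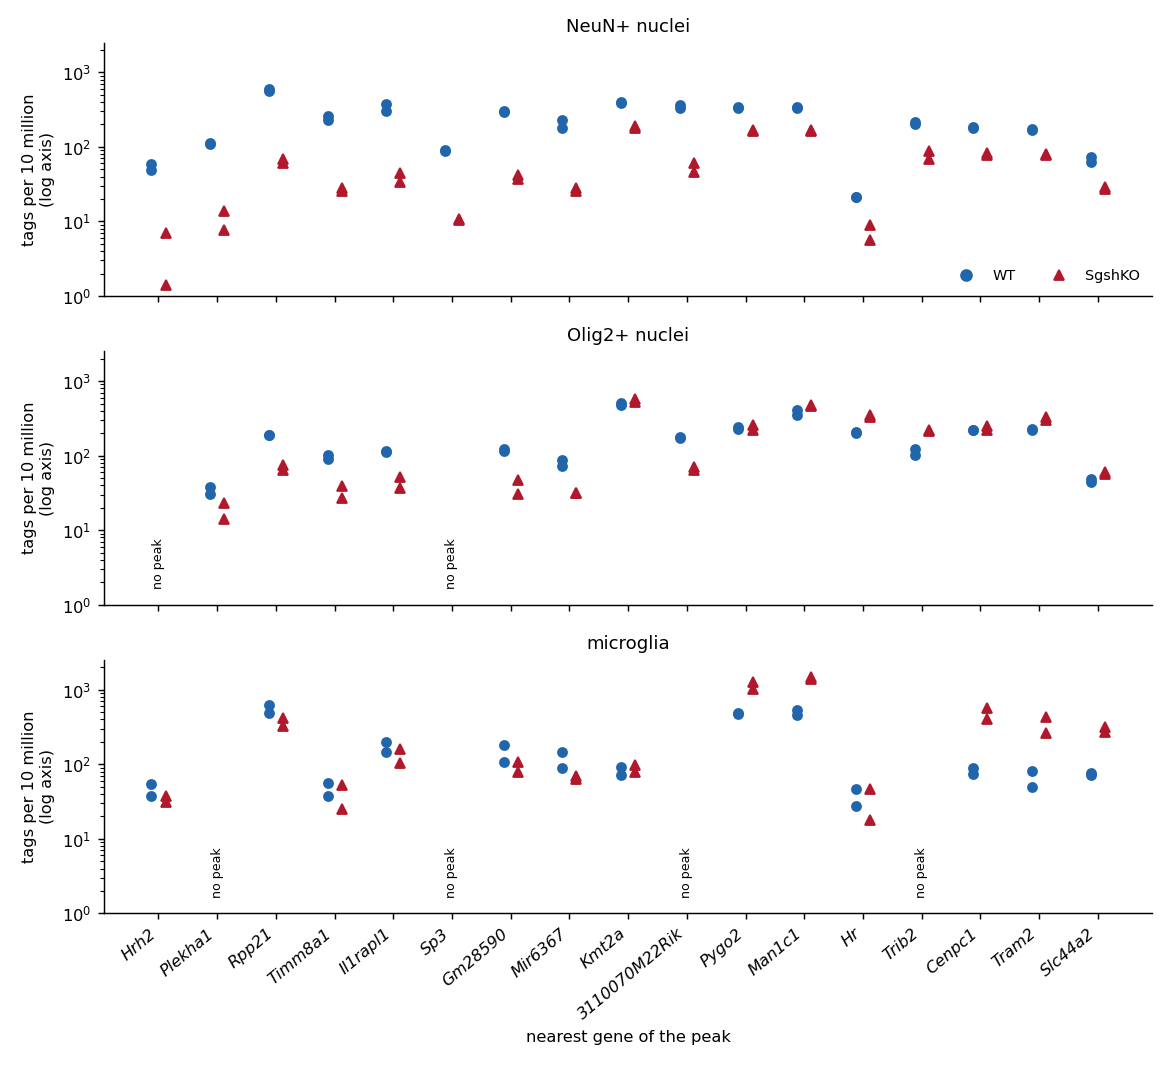
Tags per 10000000 (log axes) in each WT (circles) and SgshKO (triangles) library at 17 member places in NeuN+ nuclei, Olig2+ nuclei and microglia, labelled by nearest gene. The first 8 places, the largest neuronal falls by log2 change, are also lower in Olig2+ nuclei wherever a peak exists; from Pygo2 to Slc44a2 the microglia values are higher in SgshKO except at Hr and, with no peak, Trib2.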

How the data were processed

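ATAC-seq was measured in 12 libraries, 2 for each genotype in each of 3 sorts. The submitters' processing notes name Bowtie2, HOMER and mm10, without versions; peak settings, read shifting and the treatment of duplicates and multiply mapped reads are not given there. Per the file headers, the signal in the deposited tables counts tags over each peak after setting every library to a total of 10000000. The deposited Peak Score is a score used only as a filter. Each sort has 1 set of peaks, measured in its 4 libraries. Whole reads were recovered from 100% of values within 0.01, and 0 tag columns were left without a sample.

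The rule was applied to the NeuN+ values as deposited, and the NeuN+ log2 change given is that of the genotype means plus 1. Within each table, log2(tags + 1) was compared between genotypes with limma 3.58.1 in R 4.3.3 (lmFit, eBayes with trend, two-sided), adjusted by Benjamini-Hochberg over the whole table, with no filter, at 0.05. Each ± is the standard error of a log2 change, n = 2 libraries per genotype. Member places were matched to peaks of another sort by the largest overlap. Alternatives were edgeR 4.0.16 and DESeq2 1.42.0 on the recovered reads, 3 scalings, pseudocounts of 0.5 and 5, a low-value filter, a replicate block, a reciprocal overlap of 50%, other limits of the rule, and leaving out each library. The limma fit was tested on simulated data.

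Nearest genes come from the deposited tables; all 1183 Entrez numbers of members were found in the RefSeq table, and 26 symbols were updated from it. Promoter sequences and GC content come from the RefSeq promoter table (GRCm38.p6), and sequence elsewhere was not used here. Peaks named are the 8 largest falls by log2 change (1 per nearest gene), the 4 highest WT means, the 4 highest within 1000 bp of a start, the 3 largest groups, the smallest p at member places in each other sort (4 lower and 2 higher in Olig2+ nuclei, 3 and 3 in microglia), the 3 peaks nearest each side of the limit, and members of fixed gene lists. Some peaks that meet these criteria are not reported here. The rule, lists and named peaks were chosen with earlier results of these data known.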

Additional observations from a re-analysis of the deposited data

Results flagged for a closer look

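A set of named places was lower in SgshKO in NeuN+ nuclei and, with no overlap between genotypes, higher in another sort. A rise without overlap was common with 2 libraries per genotype. In Olig2+ nuclei it occurred at 253 of 768 member places and at 6237 of 19967 places of other well-covered NeuN+ peaks. In microglia the counts were 235 of 712 and 6972 of 18523, so members did not stand out. The neuronal direction is fixed by the rule, and the difference between sorts was not tested.

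In Olig2+ nuclei the log2 changes upward were 0.9402 at Trib2, 0.7272 at Hr, 0.4971 at Tram2, 0.3587 at Sema6d, 0.3279 at Man1c1, 0.3226 at Slc44a2 and 0.1453 at Kmt2a. Of these, Trib2, Hr, Tram2 and Man1c1 passed limma's adjusted threshold. The Man1c1 call was lost without WT replicate 1. In the Adgrb1 group they were 0.3001 at the first-intron peak, 0.184 at the intron 17 peak and 0.2462 at Mroh4, none of them called by limma. The first-intron peak was called with edgeR (adjusted p = 0.0315) and with median-of-ratios scaling (limma adjusted p = 0.0449). Kmt2a was called with edgeR (adjusted p = 0.0137), in-peak scaling (limma adjusted p = 0.048) and median-of-ratios scaling (limma adjusted p = 0.0112).

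In microglia the changes upward were 2.561 at Cenpc1, 2.384 at Tram2, 1.972 at Slc44a2, 1.518 at Man1c1 and 1.242 at Pygo2, all called by limma. They were 1.069 at Aars2, 1.033 at the Y peak 90739786 of G530011O06Rik, 0.7384 at Zcchc14 and 0.2464 at Hsp90ab1, none called by limma. Zcchc14 was called with edgeR (adjusted p = 0.00594), DESeq2 (0.0172) and a replicate block (limma, 0.00115), Aars2 with edgeR (0.0165) and the block (0.00681), and the Y peak with quantile normalization (limma, 0.0478).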

How the results depend on the processing

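The number of peaks taken from NeuN+ nuclei depended on every limit of the rule. In place of 1183 it was 208 with in-peak scaling, 316 with median-of-ratios scaling, 460 with quantile normalization, 7897 at a fold of 1.5, 54 at a fold of 3, 1982 with a WT minimum of 10 and 615 with 30. It stayed within 1.5 times without chromosomes X and Y (1156) and with Peak Score 1000 only (968). Leaving out 1 library, which leaves the rule fewer values to satisfy, gave 2440 (without WT replicate 1) to 3361 (without WT replicate 2). Within 500 bp and 5000 bp of a start site lay 45.3% and 66.4% of members, and 46.6% within 1000 bp with in-peak scaling. Another member lay within 10000 bp of 10.7%, within 200000 bp of 40.9%, and, among the fewer members left by in-peak scaling, within 50000 bp of 9.13%.

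In Olig2+ nuclei the 91 lower places became 21 with DESeq2, and 31 to 102 with a library left out (31 without WT replicate 1, 44 without WT replicate 2). The 84 higher became 34 with DESeq2, and 40 to 84 with a library left out (42 without WT replicate 1, 40 without WT replicate 2). The median of -0.002 became 0.064 with median-of-ratios scaling, 0.072 with edgeR and 0.073 with DESeq2, a change of sign. Microglia counts were the least stable. The 20 lower places became 99, 36 and 64 with in-peak, median-of-ratios and quantile scaling, 48 with edgeR, 5 with DESeq2, and 1 to 102 with a library left out (1 without either WT library, 102 without SgshKO replicate 1, 31 without SgshKO replicate 2). The 79 higher became 127 with median-of-ratios scaling, 135 with edgeR, and 8 to 115 with a library left out (20 without WT replicate 1, 8 without WT replicate 2). The median became -0.22 with in-peak scaling and -0.14 to 0.15 with a library left out. The cause of these differences was not tested.

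Replicate numbers are shared between genotypes, but nothing in the labels pairs them, and the correlation of the replicate differences was 0.004, 0.005 and 0.06 in NeuN+, Olig2+ and microglia libraries. With the replicate number as a replicate block, Olig2+ places counted 102 lower and 88 higher, and microglia places 60 lower and 131 higher. Of the named places called in Olig2+ nuclei (20) or microglia (8), none changed sign under these alternatives, and 21 of 255 and 6 of 104 recomputed values lost the call. Of the values at named places not called, 6 of 152 in Olig2+ nuclei and 42 of 208 in microglia gained one, and 9 and 6 changed sign without a call. Single reads weigh on the weakest members, whose SgshKO libraries hold as few as 2 reads.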
